A study of Komagataella phaffii GS115 with 6 samples.

Results

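AGX1 and GLY1 encode enzymes that make glycine by separate reactions, and both were read from the deposited table by their gene identifiers, PAS_chr4_0416 for AGX1 and PAS_chr4_0112 for GLY1. They are 2 of the 115 genes in that table. RNA-seq was done on Komagataella phaffii (Pichia pastoris), a yeast that can grow on methanol, in strain GS115, genotype given as WT, at 48 h in BMMY with 1% maltose (3 libraries) and at 48 h in BMMY alone (3 libraries). BMMY is a buffered complex medium that supplies methanol as carbon source, so all 6 libraries came from cells in methanol medium. GS115 is a laboratory strain that needs added histidine. The series concerns maltose and recombinant type III collagen, a protein rich in glycine, but the labels do not say whether these cells carried a collagen construct or came from separate cultures. If the libraries of a medium share a culture, the spread between them is technical.

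Alanine:glyoxylate aminotransferase, the AGX1 enzyme, moves the amino group of alanine onto glyoxylate and so yields glycine and pyruvate. Low-specificity threonine aldolase, the GLY1 enzyme, splits threonine into glycine and acetaldehyde. In Saccharomyces cerevisiae these are alternatives to the serine hydroxymethyltransferase route, in which glycine is made from serine. The AGX1 name here comes from the S. cerevisiae protein and the GLY1 name from the Ashbya gossypii protein. The deposited annotation places both genes in glycine, serine and threonine metabolism. It gives AGX1 a class-V aminotransferase domain, and GLY1 a beta-eliminating lyase domain and a class I and II aminotransferase domain.

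Every gene of the table had been kept by the authors for a difference between these same libraries, and the smallest absolute log2 fold change in the authors' deposited table is 1.001. The differences between media below therefore describe chosen genes and carry no test of their own. The authors' deposited table lists AGX1 at a log2 fold change of 1.04 (maltose over BMMY), the 11th smallest of 56 positive values, between ARO7 at 1.03 and SHB17 at 1.04. It lists GLY1 at 1.17, the 31st smallest, between YJR096W at 1.17 and EBP1 at 1.19. The smallest positive value kept was 1.001, for PAS_chr2-2_0470. Genes under that level were not analysed here.

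The listed genes held 14.9% to 15.3% of the implied depth in the maltose libraries and 6.83% to 10.1% in the BMMY libraries. The depths, worked out from counts, FPKM and gene lengths, were 35.3 to 55.3 M fragments with maltose and 53.2 to 76.1 M in BMMY. BMMY replicate 1 was the highest BMMY library for 47 of the 56 genes with positive fold changes. Both glycine genes follow that pattern, GLY1 far more than AGX1, so their values are also given without that library.

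AGX1 had a higher FPKM in every maltose library than in any BMMY library. The AGX1 fold change nevertheless turned negative when FPKM sums over the listed genes were made equal. Its FPKM, a read count scaled by gene length and library depth, was 283.7, 268.2 and 256.8 in maltose replicates 1, 2 and 3, against 214.2, 151.3 and 144.0 in BMMY replicates 1, 2 and 3. The groups did not overlap, and the BMMY library nearest to the maltose ones was replicate 1. These FPKM values rest on 11254 to 19485 reads per maltose library and 9567 to 14295 per BMMY library, for which counting alone gives an exact 95% Poisson half-width of 1.41% to 2.01%. Reads copied by PCR are not independent molecules, so these intervals cover counting error only. AGX1 averaged 269.6 ± 13.5 FPKM with maltose and 169.8 ± 38.6 FPKM in BMMY (SD, n = 3 each), 1.59 times as much. A library pools many cells, so fewer cells with the transcript and less transcript per cell cannot be told apart.

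GLY1 had a higher mean with maltose, but its groups overlapped. Its FPKM was 548.2, 611.7 and 730.5 in maltose replicates 1, 2 and 3, against 605.8, 237.7 and 233.8 in BMMY replicates 1, 2 and 3. BMMY replicate 1 lay inside the maltose range, while BMMY replicates 2 and 3 lay far below it and close to each other. The reads behind these values numbered 28846 to 33921 with maltose and 13995 to 36039 in BMMY, with Poisson half-widths of 1.03% to 1.66%. GLY1 averaged 630.1 ± 92.6 FPKM with maltose and 359.1 ± 213.7 FPKM in BMMY (SD, n = 3 each), 1.75 times as much.

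**Figure D1:**
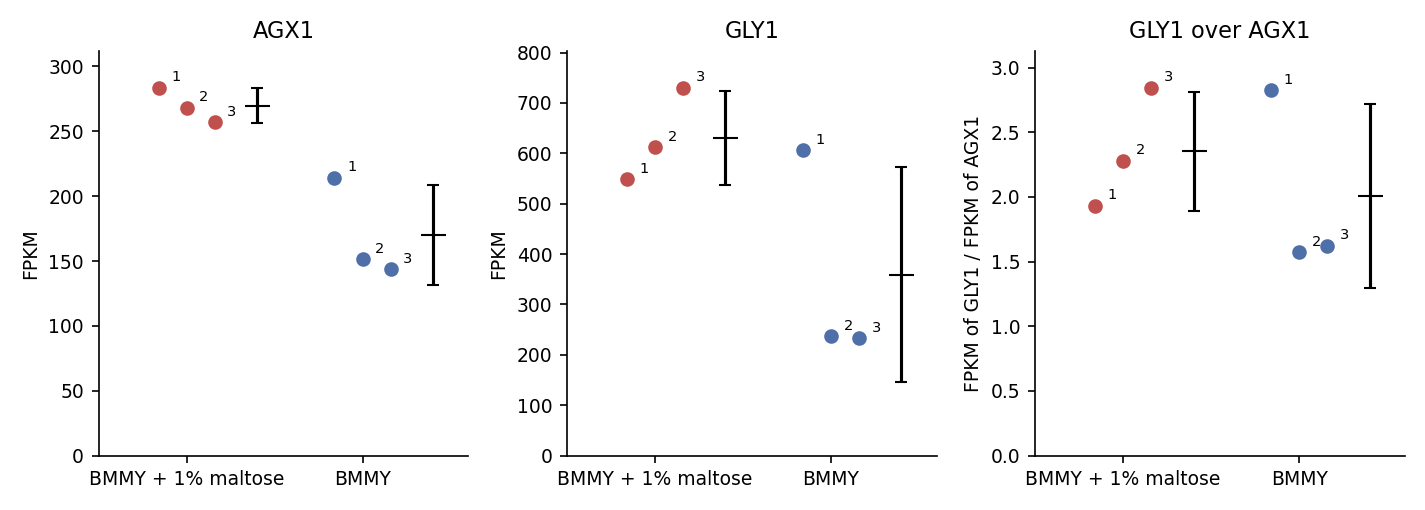
FPKM of AGX1 (left) and GLY1 (middle) and the FPKM ratio of GLY1 to AGX1 (right) in each library, numbered by replicate, with BMMY + 1% maltose in red and BMMY in blue; black bars are the mean and SD of 3 libraries. AGX1 does not overlap between media, GLY1 does because BMMY replicate 1 stands at 605.8 FPKM, and the ratio was 2.83 in that library, inside the maltose range of 1.93 to 2.84.

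Of the 2 glycine genes, 1 (AGX1) had FPKM ranges that did not overlap between media, where 94.8% of the 115 listed genes did so. In edgeR's quasi-likelihood fit over the 112 genes whose mean FPKM reached 1, the log2 fold change was 0.67 (SE 0.21) for AGX1 and 0.81 (SE 0.38) for GLY1. AGX1 passed an adjusted p of 0.05 in that fit and GLY1 did not, where 93.8% of tested genes passed. Since the genes had been selected on this contrast, nothing is read from either count. The SE of GLY1 was the wider, and without BMMY replicate 1 the log2 fold changes were 0.87 (SE 0.13) for AGX1 and 1.42 (SE 0.14) for GLY1. Both genes passed in that fit, where 56 genes were higher and 56 were lower among the 112 tested, so nothing is read from this. Leaving out BMMY replicate 2 gave 0.59 for both genes, and leaving out BMMY replicate 3 gave 0.56 for AGX1 and 0.58 for GLY1. Neither gene passed without either of those libraries or without maltose replicate 1, where the values were 0.63 and 0.90. With all 6 libraries GLY1 also passed with DESeq2, with limma at either pseudocount and under equal medians or the authors' scaling. In these fits 54 to 56 genes were higher and 56 were lower among the 112 tested, so passing does not set GLY1 apart.

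Both fold changes depend on how libraries are scaled to each other. With the scaling recovered from the authors' deposited table AGX1 was at 1.04 and GLY1 at 1.17, and with FPKM sums made equal AGX1 turned to -0.17 and GLY1 stood at 0.03. The median of all tested genes moved by 0.35 and -0.86 under these scalings, close to the moves of AGX1 and GLY1 themselves. The FPKM sums run over the listed genes only, all chosen for a difference, so equal sums are not a scaling over the whole transcriptome. A comparison of the 2 genes inside a library needs no scaling between libraries.

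**Figure D2:**
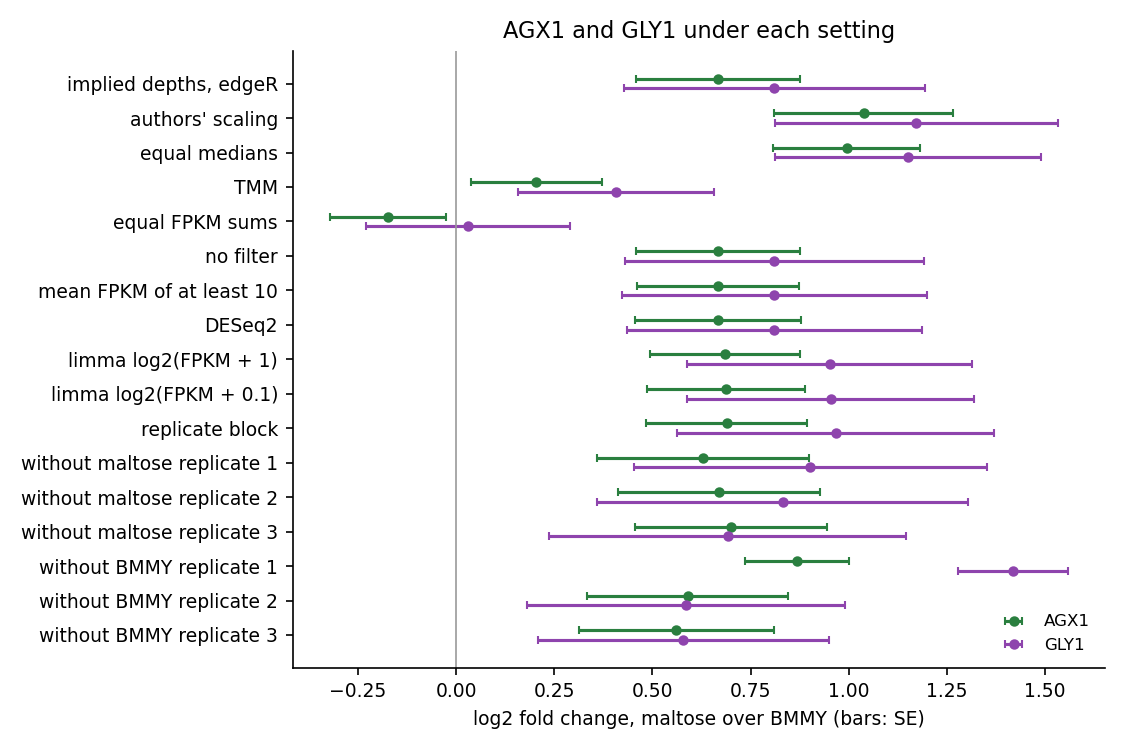
Log2 fold change (maltose over BMMY) of AGX1 (green) and GLY1 (purple) under each scaling, filter, tool and left-out library; bars are SE and the top line is the edgeR fit with implied depths. Scaling moves both genes together, down to -0.17 for AGX1 with equal FPKM sums, and leaving out BMMY replicate 1 moves GLY1 to 1.42.

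GLY1 had the higher FPKM of the pair. The FPKM of GLY1 was 1.93, 2.28 and 2.84 times that of AGX1 in maltose replicates 1, 2 and 3, against 2.83, 1.57 and 1.62 times in BMMY replicates 1, 2 and 3. It was higher in 6 of 6 libraries, 2.12-fold as a geometric mean, and the log2 ratio of AGX1 to GLY1 averaged -1.08 ± 0.38 (SD, n = 6; exact two-sided sign-flip permutation test, p = 0.03125, the smallest that 6 libraries allow). The 6 libraries include both media, and this level difference was not what the genes were selected on. The test takes the 6 libraries as independent, which the labels do not show. Its p reflects only that all 6 share a sign. A counting bias fixed to a gene would also share a sign across libraries, and was not tested. GLY1 ranked 27th and AGX1 41st of the 115 genes by mean FPKM, at 494.6 and 219.7, with a median of 68.5 FPKM over all of them. The RefSeq lengths, 1242 bases for AGX1 and 1119 for GLY1, match those behind the deposited FPKM to within 0.013%.

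The balance between the 2 transcripts overlapped between media. The log2 ratio of AGX1 to GLY1 was -1.22 ± 0.28 with maltose and -0.95 ± 0.48 in BMMY (SD, n = 3 each), a difference of -0.27 that is smaller than either spread. BMMY replicate 1 and maltose replicate 3 had nearly the same balance, at -1.50 and -1.51. Without BMMY replicate 1 the difference was -0.54, and without maltose replicate 3, BMMY replicate 2 or BMMY replicate 3 it was -0.12, -0.12 and -0.14.

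Inside each medium GLY1 varied more than AGX1. The SD of log2 FPKM over the BMMY libraries was 0.79 for GLY1, the 6th highest of 115 genes, and 0.31 for AGX1, the 53rd, beside a median of 0.28. Over the maltose libraries it was 0.21 for GLY1 and 0.07 for AGX1, beside a median of 0.16. BMMY replicate 1 exceeded the mean of BMMY replicates 2 and 3 by 1.36 on the log2 scale for GLY1 and by 0.54 for AGX1. For GLY1 this step inside BMMY was nearly as large as the 1.41 by which the maltose libraries exceeded BMMY replicates 2 and 3. For AGX1 the same difference of maltose from BMMY replicates 2 and 3 was 0.87. The difference of BMMY replicate 1 from its group ranked 4th of 115 for GLY1 and 37th for AGX1. The genes ahead of GLY1, named after their values were seen, were Gid4 (2.53), RCF2 (2.04) and SUT2 (1.49). GLY1 was 1 of 6 genes with positive fold changes for which BMMY replicate 1 reached the maltose range, together with ARO7, RCF2, SUT2, PAS_chr1-3_0240 (annotated as making flavin adenine dinucleotide) and the unnamed PAS_chr1-4_0659. In what way BMMY replicate 1 differed from the other BMMY libraries is not given in the sources used here, and its part in the GLY1 values beyond leaving it out was not tested.

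**Figure D3:**
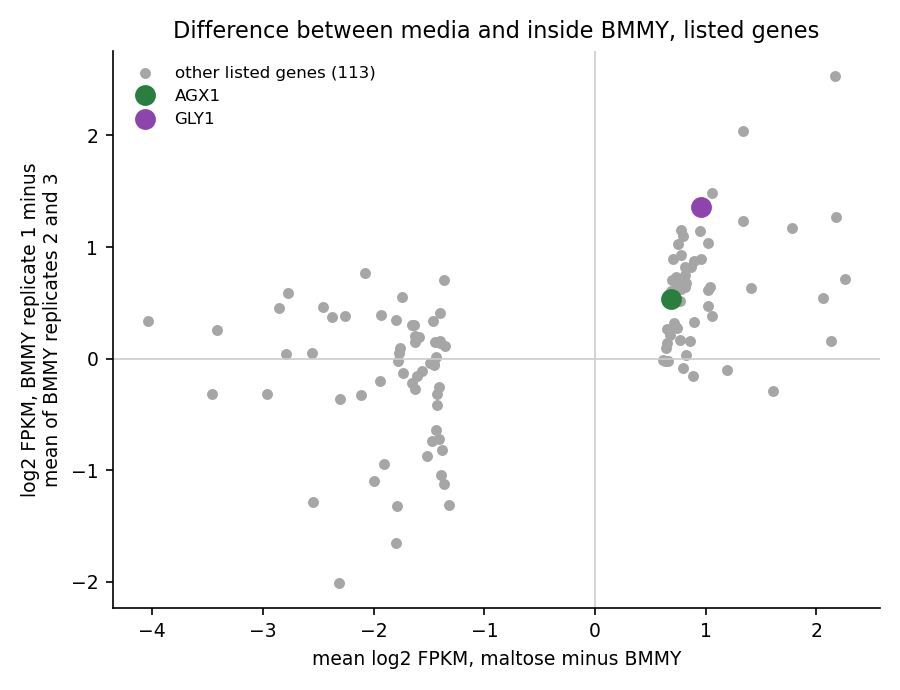
Each point is a gene of the table; the horizontal axis is mean log2 FPKM with maltose minus that in BMMY, and the vertical axis is log2 FPKM in BMMY replicate 1 minus the mean of BMMY replicates 2 and 3. GLY1 (purple) is at 0.95 and 1.36, near the top of the genes higher with maltose, and AGX1 (green) is at 0.69 and 0.54; the empty band in the middle is the authors' selection.

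The profile of AGX1 over the 6 libraries was closest to those of PEX13, FLD1, FBA1, SHB17 and PAS_chr1-3_0020. Likeness was measured as the root mean square difference of log2 FPKM after each gene's own mean was subtracted. Differences between genes inside a library cancel any scaling between libraries. PEX13, which encodes a membrane protein of the peroxisomal import machinery, was nearest at 0.05. FLD1 (glutathione-dependent formaldehyde dehydrogenase, which oxidises the formaldehyde made from methanol) was at 0.07, FBA1 (fructose bisphosphate aldolase) and SHB17 (sedoheptulose bisphosphatase by its S. cerevisiae name) at 0.08, and the unnamed PAS_chr1-3_0020 at 0.09. The median over the other 55 genes with positive fold changes was 0.20, and GLY1 was the 43rd of 114 at 0.35. PEX13 had 4.90, 5.25 and 5.14 times the FPKM of AGX1 in maltose replicates 1, 2 and 3, against 5.26, 5.22 and 4.82 times in BMMY replicates 1, 2 and 3. FLD1 had 35.8 to 41.0 times the FPKM of AGX1 with maltose and 36.0 to 38.8 times in BMMY. Both ratios overlapped between media. PEX13 and FLD1 were picked for likeness to AGX1 over these same libraries, so steady ratios follow from that choice.

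The profile of GLY1 was closest to those of SUT2, RIB3, THI20, PAS_chr1-3_0240 and ARO7, none of them among the 5 nearest to AGX1. SUT2, annotated as a putative transcription factor, was nearest at 0.09. It had 1.83 to 2.12 times the FPKM of GLY1 with maltose and 1.79 to 1.97 times in BMMY. This steady ratio too follows from picking SUT2 by its likeness to GLY1. RIB3, which makes a precursor of riboflavin, was at 0.11, and THI20, a hydroxymethylpyrimidine kinase of thiamine synthesis, at 0.12. PAS_chr1-3_0240, annotated as flavin adenine dinucleotide synthetase, was at 0.14, and ARO7, the chorismate mutase of aromatic amino acid synthesis, at 0.16. The median over the other 55 genes with positive fold changes was 0.35, and AGX1 stood at that distance, the 27th of 114. With each library left out in turn, 3 to 5 of the 5 nearest genes remained for either gene. Without BMMY replicate 1 the 5 nearest to GLY1 were THI20, SUT2, RIB3, FDH1 and TEF4, and the 5 nearest to AGX1 were PEX13, YDL114W, FBA1, FLD1 and YMC2.

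**Figure D4:**
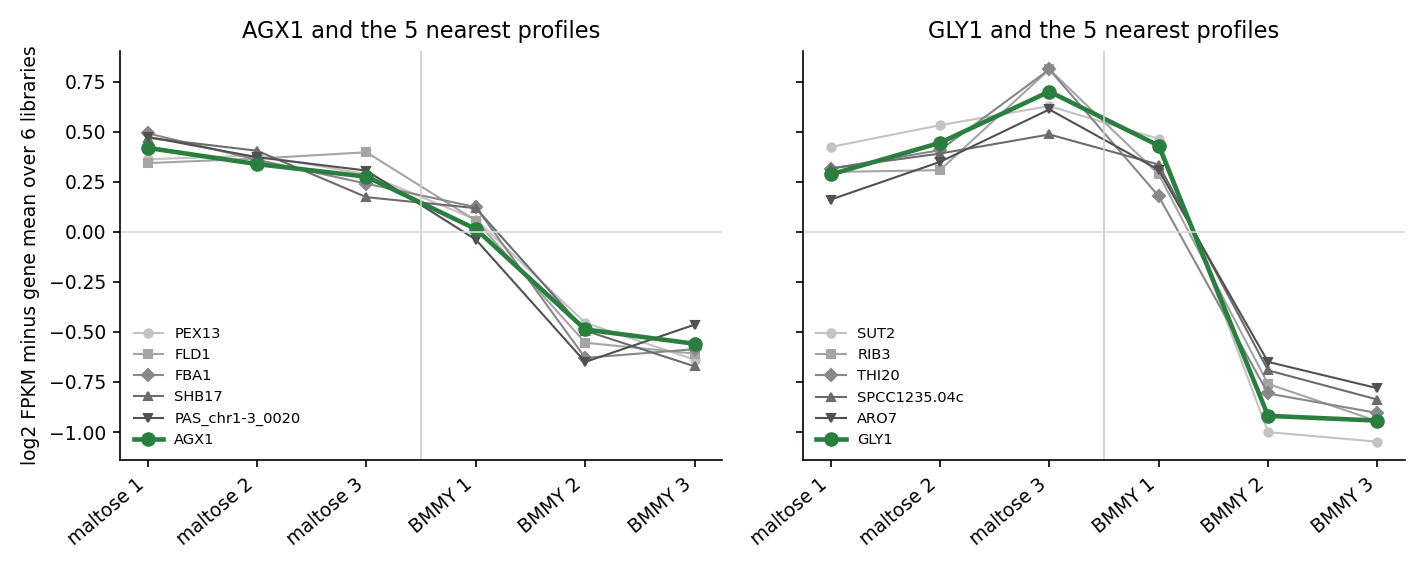
Log2 FPKM minus each gene's mean over the 6 libraries for AGX1 (left, green) and GLY1 (right, green) with the 5 genes of nearest profile in grey; lines only join points of a gene, and SPCC1235.04c is the deposited symbol of PAS_chr1-3_0240. AGX1 has BMMY replicate 1 between the maltose and the other BMMY libraries, and GLY1 has it at the level of the maltose libraries.

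No other gene of glycine metabolism could be examined. Of the 28 symbols listed for glycine, serine, threonine and one-carbon metabolism, AGX1 and GLY1 were the ones found in the table, and they were also the only 2 genes it annotates to glycine, serine and threonine metabolism. Serine hydroxymethyltransferase, the glycine cleavage system and the enzymes of threonine synthesis were not analysed here. The lists around the 2 reactions and the pathways they share held 9 further genes that were tested. Of these 9, 5 were higher with maltose, 3 were lower and 1 did not pass in the edgeR fit, where 43.8% of the 112 tested genes were higher and 50% were lower.

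Of the 5 genes annotated to carbon metabolism, AGX1 included, 4 were higher with maltose and 1, MET17, was lower. The 4 higher ones are the 4 genes annotated to methane metabolism, with a median log2 fold change of 0.72 beside -0.36 over all tested genes, of which 43.8% were higher. All had been selected on this contrast, so nothing is read from these counts. The 3 beside AGX1 were FDH1, FLD1 and FBP1. FDH1, the formate dehydrogenase that ends methanol oxidation, had 27077, 27319 and 29759 FPKM in the maltose libraries, against 21781, 12383 and 11058 FPKM in BMMY replicates 1, 2 and 3. It is also the 1 other gene annotated to glyoxylate and dicarboxylate metabolism. FBP1, fructose-1,6-bisphosphatase of gluconeogenesis, had 2172, 2106 and 2281 FPKM with maltose, against 1487, 1233 and 1219 FPKM in BMMY. All 4 were highest among BMMY libraries in replicate 1. None of the 4 overlapped between media, as held for 94.8% of the listed genes. CPA1, the small subunit of carbamoyl phosphate synthetase, shares alanine, aspartate and glutamate metabolism with AGX1 and was at 0.81 (SE 0.27). Of the 5 higher genes around the 2 reactions, none passed with equal FPKM sums and 1 did with TMM. Their number was 2 without BMMY replicate 2 and 3 without BMMY replicate 3 or maltose replicate 3.

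Of the 4 genes annotated to biosynthesis of amino acids, which include GLY1, 2 were lower and 2, GLY1 and ARO7, did not pass. With 50% of all tested genes lower, nothing is read from that count. MET17, the sulfhydrylase that makes homocysteine from O-acetylhomoserine, fell to 25.9 ± 7.19 FPKM with maltose, against 111.0 ± 36.9 FPKM in BMMY (SD, n = 3 each). The arginase gene PAS_chr4_0684 (symbol CAR1) fell to 219.6 ± 16.9 FPKM with maltose, against 1149 ± 205.9 FPKM in BMMY. ARO7 had 342.7 to 468.3 FPKM with maltose and 178.4 to 379.9 FPKM in BMMY, an overlap made by BMMY replicate 1, like that of GLY1.

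Single listed genes touch the partner compounds of the 2 reactions. DAL1, allantoinase, acts in the breakdown of allantoin, a route that ends in urea and glyoxylate, the acceptor of the AGX1 reaction. It fell to 3.82 ± 0.82 FPKM with maltose, against 11.2 ± 1.05 FPKM in BMMY, and AGX1 had 54.0 to 83.4 times its FPKM with maltose, against 11.6 to 20.3 times in BMMY. AGX1 and DAL1 were kept for opposite differences between these media, so a shift of this ratio follows from the selection. ALD5, an aldehyde dehydrogenase by its symbol, of the family that oxidises acetaldehyde, the other product of the GLY1 reaction, had 29.6, 31.0 and 40.1 FPKM with maltose, against 25.9, 15.3 and 18.5 FPKM in BMMY. Its log2 fold change was 0.75 (SE 0.24).

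**Figure D5:**
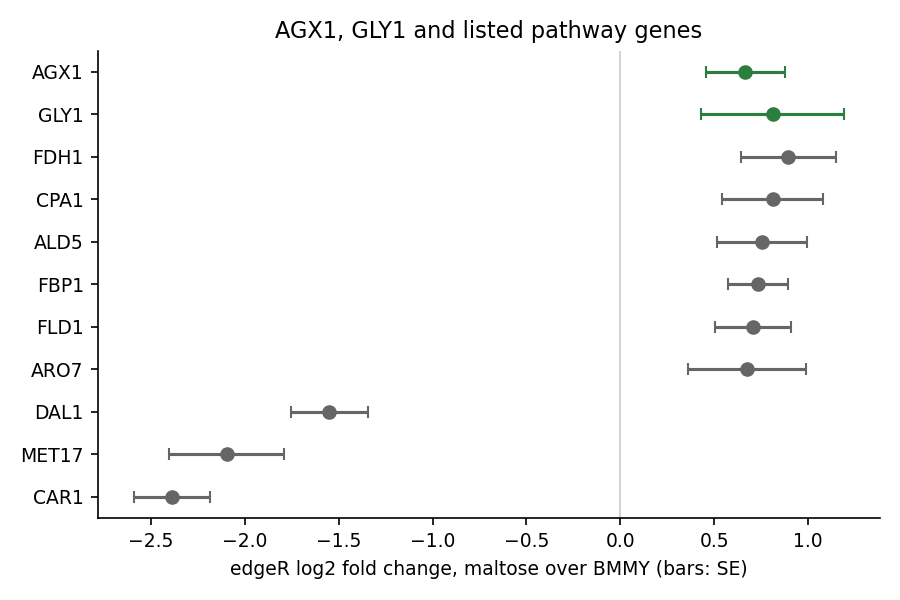
Log2 fold change (maltose over BMMY) from the edgeR fit with implied depths for AGX1 and GLY1 (green, top) and the 9 tested genes of the pathway lists (grey); bars are SE. AGX1 (0.67) and GLY1 (0.81) lie with FDH1, CPA1, ALD5, FBP1, FLD1 and ARO7 above 0, and DAL1, MET17 and CAR1 lie below it; with equal FPKM sums AGX1 turns to -0.17.

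The annotated domains of the 2 enzymes appear in few other genes of the table. The class-V aminotransferase domain of AGX1 is also given for BNA5, a kynureninase of the route from tryptophan to NAD, and for MET17, which also carries both annotated domains of GLY1. These domain families are known for enzymes that use pyridoxal phosphate, the active form of vitamin B6. BNA5 fell to 1.06 ± 0.37 FPKM with maltose, against 3.04 ± 0.94 FPKM in BMMY (SD, n = 3 each). BNA5 and MET17 were lower with maltose, unlike AGX1, but 50% of all tested genes were lower, so nothing is read from this contrast.

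AGX1 and GLY1 both lie on chromosome 4 of the RefSeq assembly ASM2700v1, and neither overlaps an annotated neighbour. Of the 4 genes next to them, 1 is in the table: PAS_chr4_0417, a hypothetical protein gene beside AGX1 with the deposited symbol SPAC1071.09c. It had 8.29, 7.79 and 6.70 FPKM in maltose replicates 1, 2 and 3, against 5.86, 3.73 and 3.59 FPKM in BMMY replicates 1, 2 and 3. Its order over the libraries was the same as that of AGX1, and its profile was the 7th nearest to AGX1, at 0.10. That order is not particular to the neighbour, since SHB17, YDL114W and YMC2, which do not lie next to AGX1, had it too. AGX1 had 34.2 to 38.3 times its FPKM with maltose and 36.5 to 40.6 times in BMMY. PAS_chr4_0417 was counted at 164 to 390 reads per library, and the sources used here do not give the strand setting of the counting. Whether reads of AGX1 reached its neighbour was not tested. The table holds 11 such adjacent pairs among its 115 genes.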

How the data were processed

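RNA-seq was done on 6 libraries, 3 per medium, grouped by their labels. The labels' protocols name kits for RNA extraction and for mRNA isolation. Per the submitters' processing notes the tools were CASAVA, HISAT2 2.2.1 and StringTie, whose roles are not stated. The sources used here do not give the genome build, annotation or strand setting. Whole-number read counts and FPKM values per gene and library were deposited by the authors. The authors also deposited a p-value, whose test is not stated, and a log2 fold change, positive where maltose was higher.

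All 115 identifiers matched the 5040 RefSeq genes of ASM2700v1, used for lengths and gene order. The implied depth is the median of count over FPKM and length. edgeR 4.0.16 (R 4.3.3) was fitted with these depths as library sizes, no TMM factors and group as the only term. The filter kept the 112 genes whose mean FPKM reached 1, with Benjamini-Hochberg adjustment over them and a threshold of 0.05. SE is the absolute log2 fold change over the square root of F. The procedure was tested on simulated data. AGX1 and GLY1 and the gene lists were chosen with earlier results of these data known. Named genes are the pair, listed genes of their pathways, the 5 nearest profiles, neighbours in the table and neighbours in the authors' fold changes. The carbon metabolism pathway was added after the data were examined. Alternatives were other scalings, filters, DESeq2 1.42.0, limma 3.58.1, a replicate block and leaving out each library. Equal medians, TMM and equal FPKM sums could use only the listed genes. The authors' scaling was solved from counts and fold changes of 92 genes, to within 0.0034 on the log2 scale.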

Additional observations from a re-analysis of the deposited data

How the results depend on the processing

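On the log2 scale AGX1 was at 1.04 with the authors' scaling, 0.99 with equal medians, 0.20 with TMM and -0.17 with equal FPKM sums, and at 0.56 to 0.87 with each library left out. GLY1 was at 1.17, 1.15, 0.41 and 0.031 under these scalings in the same order and at 0.58 to 1.42 with each library left out. Median fold changes of all tested genes moved by 0.35, 0.31, -0.48 and -0.86 under these 4 scalings in the same order. Of the 2 glycine genes, 2 passed with the authors' scaling, equal medians, DESeq2, limma on log2(FPKM + 1) and limma on log2(FPKM + 0.1), 0 with TMM or equal FPKM sums, and 0 to 2 with each library left out. Where 2 passed, 54 to 56 genes were higher and 56 were lower among the 112 tested, so passing does not set the pair apart. Over all genes, 13 were higher with TMM, 7 with equal FPKM sums and 29 to 56 with each library left out (29 without BMMY replicate 2), against 49, and 31 were lower in place of 56 at a mean FPKM of at least 10, where fewer genes were tested. Of the 9 pathway genes, 1 was higher with TMM, 0 with equal FPKM sums and 2 to 6 with each library left out, against 5. The log2 ratio of AGX1 to GLY1 was -1.17 to -0.998 with each library left out, where 5 libraries allow no p below 0.0625.

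Same-numbered libraries did not deviate together (r = -0.15, -0.02 and 0.04 over 112 genes), and the replicate numbers share only a number. With the replicate block AGX1 was at 0.69 and GLY1 at 0.97, the counts of calls stayed at 49 higher and 56 lower, and 1 of the 2 glycine genes passed. The profile difference of AGX1 and GLY1 was 0.31 to 0.38 with each library left out, an alternative chosen after seeing the data. Depth limits little, since the lowest count of either gene in a library was 9567.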
